A study of Mus musculus with 4 samples.

Results

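The MHC class II pathway was followed through 7 of the 18191 distinct gene names in the deposited tables. The cells were ILC3s, group 3 innate lymphoid cells, from mouse small intestine, sorted as live cells low for CD45 and high for CD90.2 that lacked CD3. The 7 genes were chosen by name: Cd74, H2-Aa, H2-Ab1, H2-Eb1, H2-DMa, H2-DMb1 and Ciita. All 7 were tabulated in both joint tables, with 15242 rows for the first pair of libraries and 12546 for the second. The first pair is ILC3s of IL-17D knockout (Il17d-KO) mice and of WT mice at steady state, and the second is CD93-positive and CD93-negative ILC3s sorted from WT mice. Per the labels, cell suspensions were cultured without stimulation before the CD93 sort, and each of the 4 groups is 1 library. The sources used here do not give the age or strain of the mice, whether animals were pooled, or whether the KO and WT cells were cultured too. Il17d itself, the gene that was knocked out, was not analysed here.

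MHC class II molecules are pairs of an alpha and a beta chain that carry peptides from the endosome to the cell surface, where CD4 T cells read them. The invariant chain, encoded by Cd74, holds the groove shut until proteases of the endosome remove it, and the DM heterodimer then exchanges its last fragment for peptide while the DO heterodimer restrains DM. CIITA, the master coactivator of these genes, binds no DNA itself but docks on factors at a conserved promoter module, the X box and the Y box, which is an inverted CCAAT box. In the mouse gut, ILC3s that carry CCR6 are known to express MHC class II and to limit CD4 T cell responses to commensal bacteria.

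Stretches of 5 promoters are shown, of genes that differed in opposite directions below. All but that of H2-DMb1 hold both marked cores. The sequences are from RefSeq on GRCm38.p6, on the strand of the gene, read 5′ to 3′, and capitals mark GCAAC, a core of the X box, and ATTGG, the core of the Y box.
H2-Aa, chr17:34287859-34287912, minus strand: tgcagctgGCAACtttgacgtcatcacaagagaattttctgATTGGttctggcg
H2-Eb1, chr17:34305768-34305820, plus strand: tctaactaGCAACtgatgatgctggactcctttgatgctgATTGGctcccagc
H2-DMb1, chr17:34153092-34153142, plus strand: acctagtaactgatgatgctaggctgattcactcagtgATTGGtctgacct
H2-Oa, chr17:34092295-34092348, plus strand: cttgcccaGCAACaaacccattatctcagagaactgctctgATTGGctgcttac
H2-Ob, chr17:34238810-34238860, plus strand: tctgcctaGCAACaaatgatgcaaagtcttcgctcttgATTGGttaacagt

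GCAAC followed by ATTGG, 28 to 36 bases from start to start, was searched in windows from 250 bases before to 50 bases after the start that each promoter entry gives. That start can differ from the gene start given below. These letters and distances were chosen after the class II promoters had been read. The arrangement was present in 141 of 32851 mouse promoters on either strand (0.429%), while GCAAC alone was in 35.2% and ATTGG alone in 37.4% of them. Of the 7 genes, 4 had a promoter in the table, and H2-Aa and H2-Eb1 held the arrangement, with distances of 33 and 32 bases. The H2-DMb1 window had ATTGG without GCAAC at that distance. Its printed stretch reads GTAAC near its start, and only the exact letters were searched. The search therefore does not show that H2-DMb1 lacks an X box. The arrangement was not in either of the H2-DMa windows (34122582 to 34122881 and 34125268 to 34125567). Both lie inside the gene as given below, not at its first base. Of 4 neighbouring class II genes, H2-Oa, H2-Ob and H2-Eb2 held it and H2-DMb2 did not. The part of the arrangement in the differences between libraries was not tested.

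Levels are the authors' deposited FPKM, which count fragments per kilobase of a gene and scale them to library size. They are set side by side only within a pair, since the pairs were tabulated separately and with different gene models: the FPKM of Cd74 gave whole reads with a gene length of 1410 bases in the first pair and of 1679 bases in the second. The library totals that the FPKM were scaled by were 27002581 (KO) and 26087274 (WT), and 11712846 (CD93-positive) and 11790580 (CD93-negative). Intervals in parentheses are 95% exact counting intervals from the reads recovered from the FPKM. They cover counting error of reads only and compare libraries, not conditions. Reads copied by PCR are not independent molecules, so the intervals can be too narrow. Since each group is a single library, the spread between replicates is unknown and no difference has a test. A gene counted as measured where one library of the pair, or both, reached an FPKM of 1, and a difference of at least 1 on the scale of log2(FPKM + 1), or 2-fold, was counted. The added 1 makes differences at low levels look smaller. Of 18 ILC3 core genes 18 were measured in both pairs, which needs only 1 library of a pair to reach that level. They summed to 14434 in KO and 18617 in WT, with 1 at least 2-fold higher in KO and 0 lower. In CD93-positive and CD93-negative cells the sums were 9636 and 2908, with 2 higher in CD93-positive cells and 0 lower. In bulk libraries, fewer cells that express a gene and less of its RNA per cell cannot be told apart.

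The KO and WT pair addresses how antigen presentation genes stand in ILC3s without IL-17D. The abundant class II genes stayed within 2-fold in the KO library, with H2-Ab1 higher and H2-Eb1 lower, while the genes at low levels differed more and in both directions. H2-DMa and Ciita were higher in the KO library, and H2-DMb1, which encodes the partner of the H2-DMa product, was listed at 0 there. Of the 7 genes, 7 were measured, and the 2-fold limit was passed upward by 2 and downward by 1, with a median log2 difference of 0.14. Among all 12376 measured genes, 16.6% passed it upward and 12.7% downward, 29.3% together, and the median was 0.01. A count of 3 of 7 therefore does not stand apart from genes in general.

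Cd74 (ENSMUSG00000024610.15; mm10 chromosome 18, 60803848 to 60812652, plus strand) was the highest of the 7 genes, at 420.1 FPKM in KO, against 457 in WT, rank 154 of all rows in either library. Its ratio of 0.920 (0.90 to 0.94) was below 1 as deposited, and its log2 difference of -0.12 turned to 0.05 when both libraries were scaled to the same summed FPKM. H2-Ab1, the beta chain of the I-A molecule (ENSMUSG00000073421.6; chromosome 17, 34257689 to 34269419, plus strand), had 187 in KO and 141 in WT, 1.33-fold higher (1.28 to 1.37). H2-Aa, the alpha chain of I-A (ENSMUSG00000036594.15; chromosome 17, 34282744 to 34287823, minus strand), had 20.3 and 18.2 in the same order, a ratio of 1.11 (1.01 to 1.22). Both genes of I-A thus had ratios above 1, that of H2-Ab1 the larger. H2-Eb1, the beta chain of the I-E molecule (ENSMUSG00000060586.11; chromosome 17, 34305867 to 34316674, plus strand), went the other way, with 44.2 in KO, against 67.8 in WT, 1.54-fold lower (1.43 to 1.64). The alpha chain gene of I-E was not analysed here. The order Cd74, H2-Ab1, H2-Eb1 and H2-Aa, high to low, held in both libraries. These 4 genes made up 98.4% of the summed FPKM of the 7 in KO and 98.8% in WT, and the sums were 682 and 691.

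**Figure D1:**
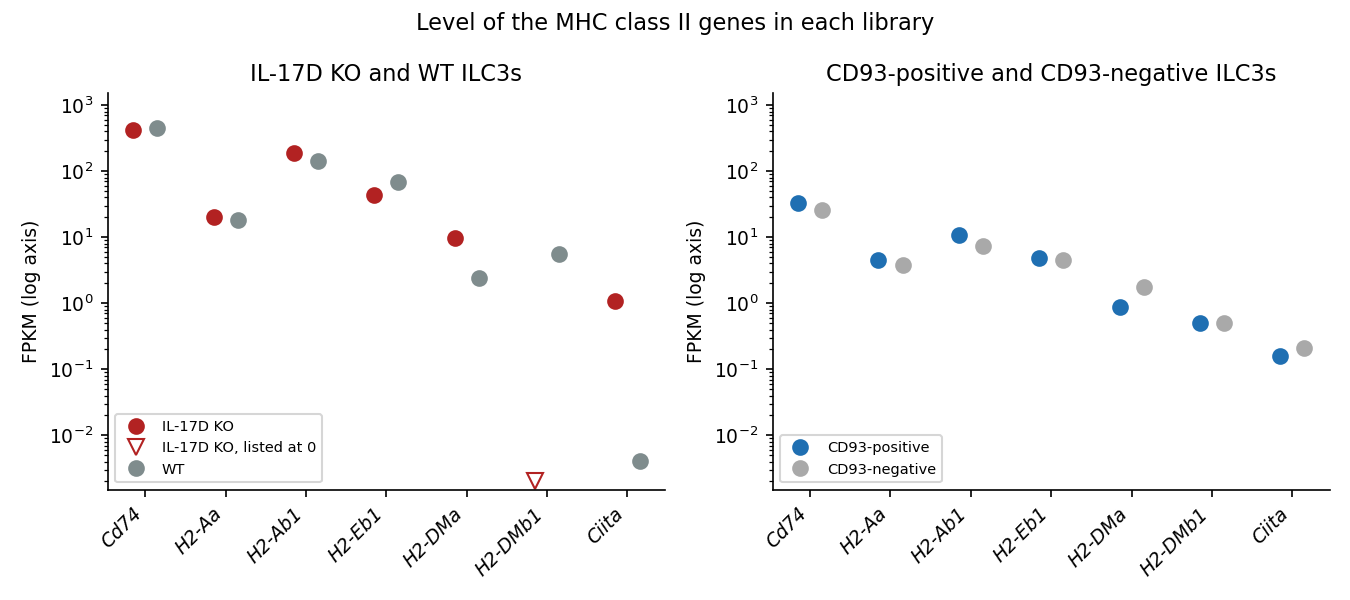
FPKM of the 7 class II genes in each library on a log axis, with IL-17D KO (red) left of WT in the left panel and CD93-positive (blue) left of CD93-negative in the right one; the open triangle, drawn at the foot of the axis, is a value listed at 0. Cd74 is highest in all 4 libraries, and H2-DMb1 is listed at 0 in KO against 5.50 in WT.

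The peptide exchange genes were split between the chains of one heterodimer. H2-DMa, the DM alpha chain (ENSMUSG00000037649.10; chromosome 17, 34119541 to 34139101, plus strand), stood at 9.73 FPKM in KO, against 2.45 in WT. The recovered numbers were 431 and 105 reads, 3.97-fold higher in KO (3.20 to 4.96). H2-DMb1, the DM beta chain (ENSMUSG00000079547.4; chromosome 17, 34153072 to 34160230, plus strand), was listed at 0 in KO and had 5.50 in WT. With 213 reads in WT and a floor of 3 reads in KO, it was at least 73.5-fold lower. Its near copy H2-DMb2 had 1 read in KO and 20 in WT (FPKM 0.0217 and 0.448). Of all stretches of 50 bases in annotated H2-DMb1 transcripts, 22.7% also occur in H2-DMb2, so reads of that part cannot be told apart and the split between the copies is uncertain. Both copies were lower in KO, so their sum was lower as well. Of the same stretches of H2-DMa, 8.43% lie in Brd2, a gene on the other strand, and strand use in the counting is not stated.

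The DO genes, which encode the inhibitor of DM, showed the same split. H2-Oa, the DO alpha chain (ENSMUSG00000024334.9; chromosome 17, 34092340 to 34095234, plus strand), stood at 4.99 FPKM in KO, against 1.02 in WT, 4.89-fold higher (3.39 to 7.24). Of the stretches of 50 bases of H2-Oa, 15.5% lie in BC051537, a gene on the other strand. Since strand use is not stated, reads of that part may belong to either gene. H2-Ob, the DO beta chain (ENSMUSG00000041538.16; chromosome 17, 34238903 to 34254414, plus strand), had 1.10 in KO, against 2.55 in WT, 2.31-fold lower (1.81 to 2.98), with a log2 difference of -0.76 that the added 1 holds under the 2-fold limit. H2-Eb2, a beta chain gene beside H2-Eb1, had 0 reads in KO, against 26 in WT, at least 8.97-fold lower. Over DM and DO, the alpha genes H2-DMa and H2-Oa were thus higher in KO. The beta genes H2-DMb1, H2-DMb2, H2-Ob, H2-Eb1 and H2-Eb2 were lower, of which H2-DMb2 and H2-Eb2 stayed under an FPKM of 1 in both libraries. The split does not hold for I-A, where H2-Aa and H2-Ab1 both had ratios above 1, and I-E has no alpha value here. Among measured genes with a mean FPKM under 10, where H2-DMa, H2-DMb1, H2-Oa, H2-Ob and Ciita lie, 38.3% were at least 2-fold apart in this pair. Between 10 and 100, as for H2-Aa and H2-Eb1, the share was 13.7%, and at 100 or more, as for Cd74 and H2-Ab1, 4.99%.

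Ciita (ENSMUSG00000022504.10; chromosome 16, 10480059 to 10528418, plus strand) stood at 1.08 FPKM in KO, against 0.00402 in WT. These values are 279 reads and 1 read, a ratio of 269.5 (48.0 to 10684). Its log2 difference of 1.05 lay just past the limit, and was 0.28 with 5 added in place of 1. The genes that CIITA acts on went both ways. Cd74 had a ratio of 0.920, H2-Aa of 1.11, H2-Ab1 of 1.33 and H2-Eb1 of 0.651, while H2-DMa was 3.97-fold and H2-Oa 4.89-fold higher and H2-DMb1 at least 73.5-fold lower. In the WT library H2-Ab1 stood at 141 and Cd74 at 457, and Ciita had 1 recovered read. The part of Ciita in the levels of these genes was not tested.

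**Figure D2:**
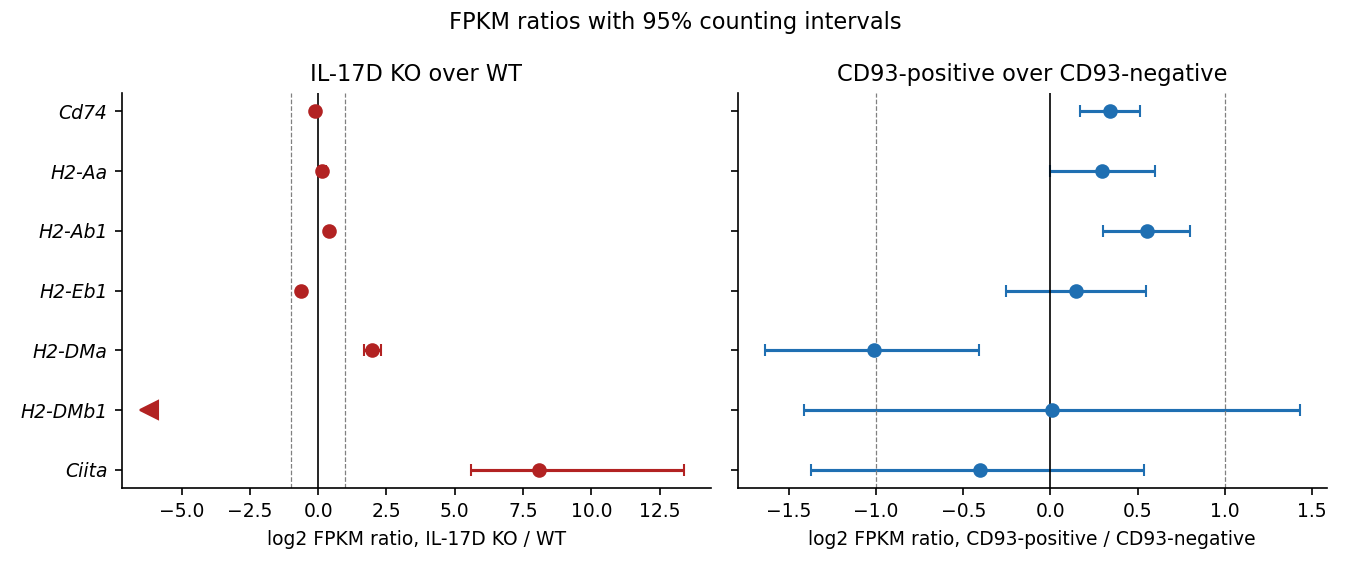
Log2 of the FPKM ratio of each class II gene, KO over WT (left) and CD93-positive over CD93-negative (right); bars are 95% counting intervals, dashed lines mark 2-fold, and the left-pointing triangle is an upper bound for H2-DMb1 in KO, where it had 0 reads. The panels have different axes: intervals of H2-DMa and Ciita lie above 2-fold on the left, and none lies wholly past 2-fold on the right.

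**Figure D3:**
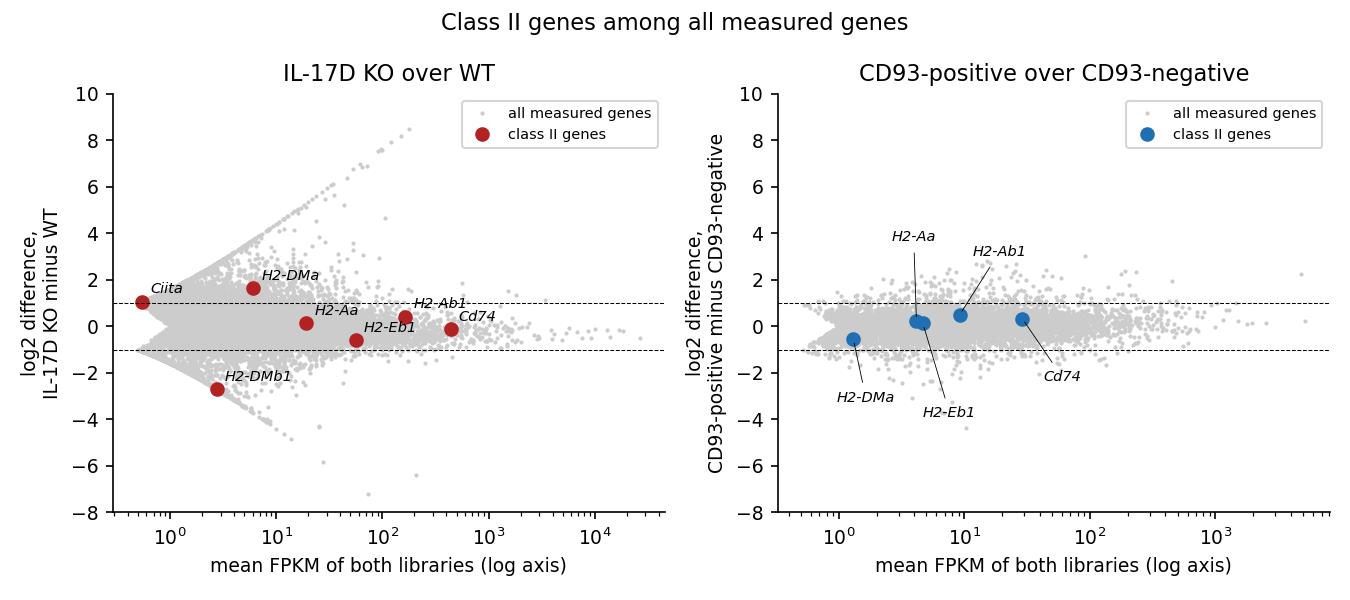
Log2 difference of FPKM + 1 against mean FPKM (log axis) for every measured gene (grey) and the measured class II genes (coloured), by pair; dashed lines mark 2-fold. The grey cloud of the KO and WT pair widens at low levels, where Ciita, H2-DMa and H2-DMb1 lie, and is narrower in the CD93 pair.

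Of the markers of other cells, those of macrophages and monocytes, of epithelium and of T cells were mostly higher in KO. Most B cell and dendritic cell genes stayed within 2-fold, though all 7 measured B cell genes had differences above 0 in KO. Of 16 macrophage and monocyte genes, 8 were tabulated and 7 measured, and 6 of these passed 2-fold upward in KO and 0 downward, while Ly6c2, a monocyte gene, was listed at 0 in KO against 0.923 in WT. Their median difference was 2.00, and the tabulated genes summed to 92.9 in KO and 38 in WT. C1qb, a complement gene of tissue macrophages, had 5.28 in KO and 0.141 in WT, and Cd68, a lysosomal macrophage protein, had 9.10 and 0.884 in the same order. Of 15 B cell genes, 9 were tabulated and 7 measured, of which 2 passed 2-fold upward and 0 downward, and the median was 0.28. They summed to 2140.2 in KO and 1866 in WT, most of it Igkc (1846 and 1689). Cd79a, which encodes a chain of the B cell receptor, had 79 reads in KO, against 3 in WT. Of 15 dendritic cell genes, 8 were tabulated and measured, with 1 higher, Ccl22 (2.55 and 0), and 2 lower, Xcr1 (0.00832 and 1.72) and Cd209a (0.0234 and 3.85), and sums of 99.3 in KO and 97.7 in WT. Of 18 epithelial genes, 11 were measured, with 8 higher and 1 lower, and sums of 1078 and 301. Of 12 T cell genes, 12 were measured, with 7 higher and 0 lower, and sums of 1309 and 898. The part of these cells or their RNA in the differences of Ciita, H2-DMa and H2-DMb1 was not tested.

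Ratios between genes of one library do not depend on the scaling between libraries. H2-Eb1 over H2-Ab1 was 0.237 in KO (0.223 to 0.250) and 0.483 in WT (0.459 to 0.507). Cd74 over H2-Ab1 was 2.25 in KO (2.19 to 2.31) and 3.25 in WT (3.16 to 3.35). In both cases the counting intervals of the libraries do not overlap, so H2-Ab1 was higher relative to both other genes in the KO library. H2-Ab1 over H2-Aa, the beta over the alpha chain of I-A, was 9.22 in KO (8.63 to 9.84) and 7.71 in WT (7.19 to 8.28). H2-Oa over H2-Ob was 4.52 in KO (3.50 to 5.87) and 0.400 in WT (0.271 to 0.574), a reversal of which DO chain had the higher level. The limit from the gene on the other strand of H2-Oa holds for this ratio too.

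**Figure D4:**
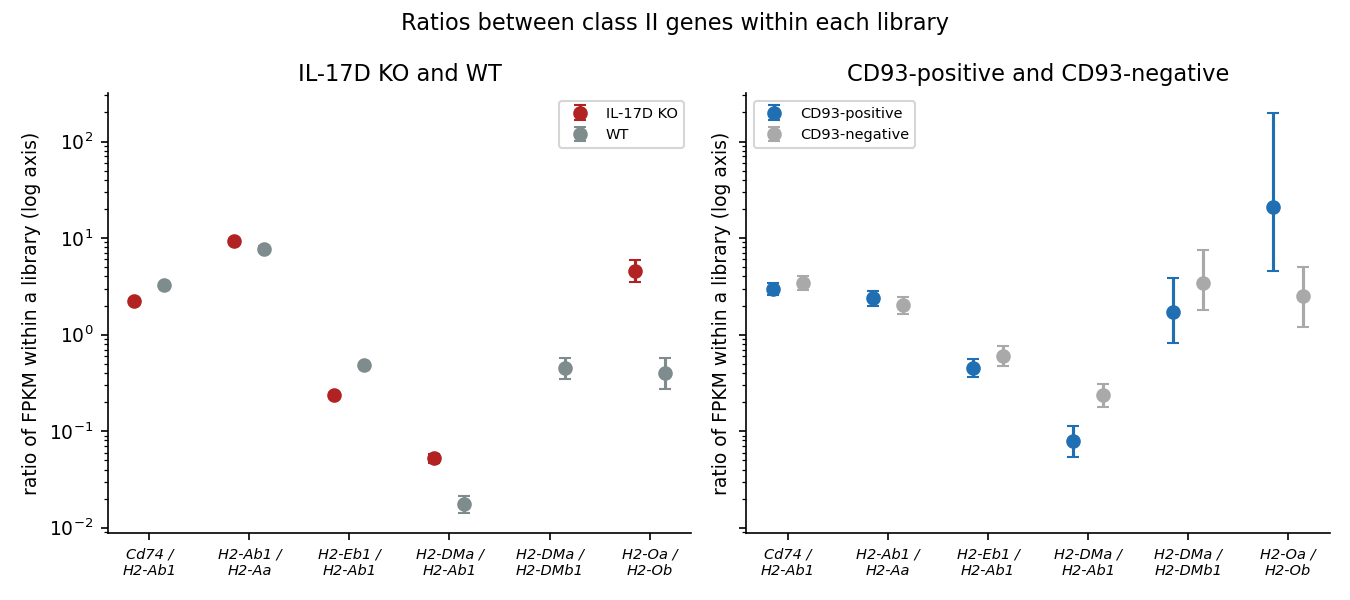
Ratio of the FPKM of pairs of class II genes within each library (log axis), KO left of WT and CD93-positive left of CD93-negative, with 95% counting intervals; H2-DMa over H2-DMb1 has no KO value, since H2-DMb1 was listed at 0. H2-Oa over H2-Ob lies at 4.52 in KO and 0.400 in WT, and H2-DMa over H2-Ab1 at 0.0792 in CD93-positive and 0.234 in CD93-negative cells.

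The machinery around these genes was described by lists. Of 12 genes of the complex at class II promoters, 11 were tabulated and 10 measured, and 0 passed 2-fold on the scale of FPKM + 1, with a median of -0.10. Of the subunits of RFX, which binds the X box, Rfxank had 7.62 in KO and 6.73 in WT, Rfxap had 4.74 and 5.28, and Rfx5 stayed under 1 in both (0.00674 and 0.0907). The NF-Y genes, whose products bind the Y box, went both ways, with Nfyb at 10.5 in KO and 6.07 in WT, Nfya at 1.47 and 0.618, and Nfyc at 2.08 and 2.23. By the plain ratio of FPKM, the X box factor gene Creb1 was 2.31-fold lower (2.38 in KO and 5.49 in WT), its relative Atf1 had 6.0 and 8.66, and the acetyltransferase genes Kat2b (2.87 and 6.67) and Ep300 (0.431 and 1.06) were lower and Crebbp (53.9 and 38.5) higher. Of 13 measured genes upstream of Ciita, 1 was at least 2-fold higher and 0 lower. It was Prdm1, which encodes BLIMP1, a repressor of Ciita in plasma cells (2.39 in KO and 0.268 in WT). By the plain ratio of FPKM, the interferon regulatory factor genes Irf4 (1.5 in KO and 0.547 in WT) and Irf2 (3.95 and 1.78) were also past 2-fold upward, at 2.75-fold (2.08 to 3.66) and 2.21-fold (1.95 to 2.52). Usf1, which encodes a factor that binds E boxes, was 2.37-fold lower (1.91 to 2.97). With 0.1 added in place of 1, the counts were 3 higher and 1 lower. Ifng, the main inducer of Ciita outside professional antigen presenting cells, had 40.7 in KO and 28.8 in WT, and its receptor gene Ifngr1 had 949.5 and 835. Ifng was 1.41-fold higher (1.30 to 1.54), less than Ciita.

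Genes of invariant chain removal and antigen processing were mostly within 2-fold. Of 18 measured in the KO and WT pair, 1 was at least 2-fold higher, Ctsb, which encodes cathepsin B (50.5 in KO and 24.7 in WT), and 1 lower, Lamp2, a lysosomal membrane protein (2.06 and 6.63). The median of this list was -0.02. Ctss, the protease that trims the invariant chain in most antigen presenting cells, had 67.8 in KO and 74.3 in WT. Lgmn, the endosomal protease legumain, had 3.40 and 1.40, and Ifi30, the thiol reductase GILT, had 11.7 and 7.19.

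**Figure D5:**
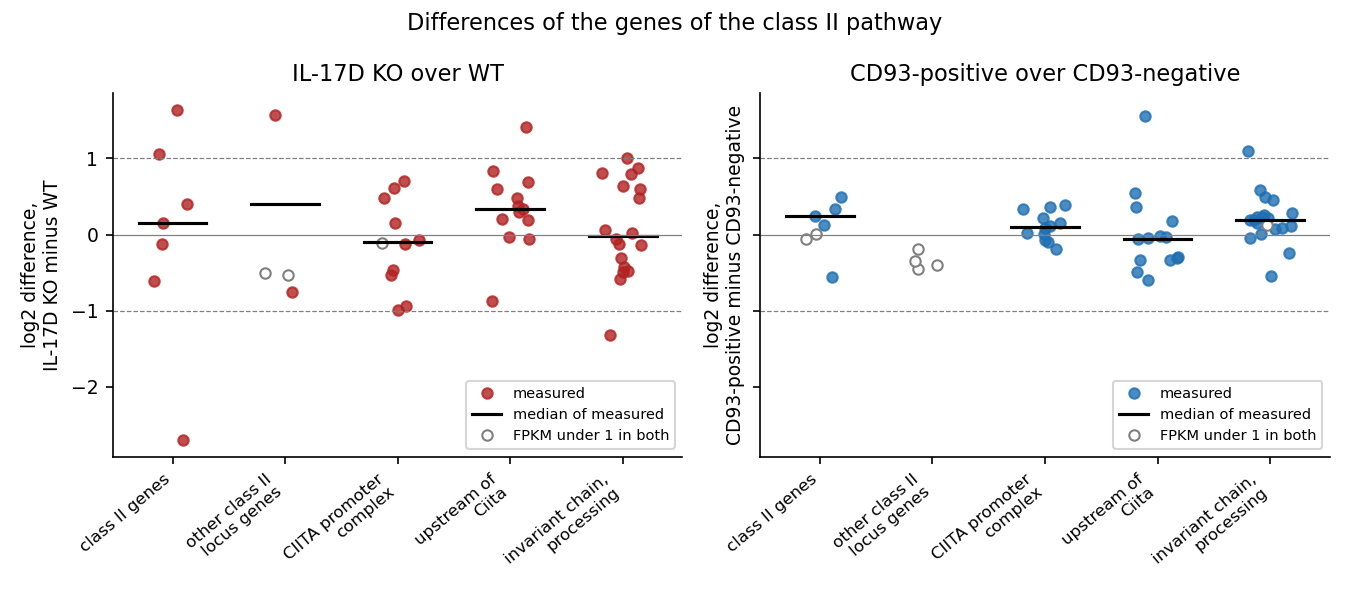
Log2 difference of FPKM + 1 for each tabulated gene of 5 lists, KO minus WT (left) and CD93-positive minus CD93-negative (right); filled points are measured genes, open points had an FPKM under 1 in both libraries, black bars are medians of measured genes, and points are spread sideways only for view. In the KO and WT pair the class II genes range from -2.70 to 1.64, and in the CD93 pair from -0.56 to 0.50.

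The CD93 pair addresses how WT ILC3s with and without surface CD93 differ. As deposited, H2-Ab1 and Cd74 were higher in CD93-positive cells, by less than 2-fold. No difference of H2-Aa or H2-Eb1 was detectable at this depth. The DM and DO genes were at or under an FPKM of 2 in both libraries. Of the 7 genes, 5 were measured, and 0 passed 2-fold in either direction. Among all 10117 measured genes, 2.49% passed it upward and 1.94% downward, 4.43% together, so 0 of 5 does not stand apart from genes in general. Of all genes past 2-fold, 56.2% were higher in CD93-positive cells as deposited, and 36.9% with both libraries scaled to the same summed FPKM. The median difference of the 5 was 0.24, against 0.04 over all measured genes.

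Cd74 stood at 32.4 FPKM in CD93-positive cells, against 25.6 in CD93-negative cells, 1.27-fold higher (1.13 to 1.43), at ranks 1610 and 1938 of 12546. H2-Ab1 had 10.9 and 7.46 in the same order, 1.47-fold higher (1.23 to 1.74). The intervals of these 2 genes lay above 1, for the deposited scaling only. With both libraries scaled to the same summed FPKM, the log2 difference of Cd74 fell from 0.33 to 0.16. That of H2-Ab1 fell from 0.50 to 0.34. H2-Aa had 4.59 in CD93-positive and 3.73 in CD93-negative cells, a ratio of 1.23 (0.997 to 1.52), from 204 and 167 reads. H2-Eb1 had 4.92 and 4.45 in the same order, a ratio of 1.11 (0.838 to 1.46), and its log2 difference of 0.12 turned to -0.03 when the libraries were scaled to the same summed FPKM. The intervals of H2-Aa and H2-Eb1 include 1, so neither is set apart from a ratio of 1. H2-Eb1 over H2-Aa was 1.07 (0.844 to 1.36) in CD93-positive and 1.19 (0.923 to 1.54) in CD93-negative cells. These levels rest on the gene lengths: by reads alone the ratios were 0.549 and 0.611 in the same order.

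H2-DMa went the other way, at 0.867 FPKM in CD93-positive cells, against 1.75 in CD93-negative cells. It had 35 and 71 reads, 2.02-fold lower (1.33 to 3.11), while its log2 difference of FPKM + 1 was -0.56. H2-DMb1 had 10 reads in each library (FPKM 0.508 and 0.505) and a ratio of 1.01 (0.376 to 2.69). Ciita had 18 reads in CD93-positive and 24 in CD93-negative cells (FPKM 0.161 and 0.213), a ratio of 0.755 (0.386 to 1.45). Both intervals include 1. Of the genes beside them, none reached an FPKM of 1. H2-Ob had 2 reads in CD93-positive and 23 in CD93-negative cells, 11.4-fold lower (2.82 to 99.97), H2-Eb2 had 0 and 11, H2-DMb2 had 1 and 9, and H2-Oa had 11 and 15. All 4 had fewer reads in the CD93-positive library, as H2-DMa did. The interval of H2-Oa includes 1, with a ratio of 0.738 (0.307 to 1.72), so it is not set apart. H2-DMa over H2-Ab1, within a library, was 0.0792 (0.0542 to 0.113) in CD93-positive and 0.234 (0.177 to 0.307) in CD93-negative cells.

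Markers of LTi-like ILC3s, the subset that carries CCR6, differed far more than class II genes did. Of 12 such genes, 10 passed 2-fold upward in CD93-positive cells and 0 downward, with a median of 1.5; the count was 5 with a pseudocount of 5 and 6 at 3-fold. Of 13 measured genes of the T-bet program, which marks another ILC3 subset, 0 passed 2-fold upward and 8 downward, with a median of -1.44, and 4 were lower at 3-fold. In the KO and WT pair, 1 of 12 LTi-like genes and 3 of 13 T-bet genes passed 2-fold upward in KO and 0 downward. Of all measured genes of that pair, 16.6% passed it upward. Klrb1c, a receptor gene of natural killer cells, had 0.721 in CD93-positive and 15.3 in CD93-negative cells. Ccr6 had 28.8 in CD93-positive and 3.47 in CD93-negative cells, 8.30-fold higher, beside the 1.47-fold of H2-Ab1. Cd4, the class II coreceptor that LTi-like cells also carry, was 9.07-fold higher (27.3 and 3.01), and Lag3, an inhibitory receptor that binds class II, was 2.19-fold lower (2.15 and 4.71). Of 11 tabulated dendritic cell genes, 9 were measured, with 0 higher and 4 lower, among them Fscn1, an actin bundling gene of mature dendritic cells (7.17 and 21.3), and the list's sums were 949 and 773, most of it Bst2 (899 and 674). Of 15 tabulated macrophage and monocyte genes, 10 were measured, with 1 higher, Fcgr1 (2.57 and 0.655), 0 lower, and sums of 79.3 and 60.9. Of 6 tabulated B cell genes, 3 were measured, and Blk, a kinase gene of B cells, was 7.74-fold higher (24.6 and 3.18). Of 8 measured epithelial genes, 0 were higher and 1 lower, Epcam, an adhesion gene (1.21 and 4.91). Of 3 measured T cell genes, 0 were higher and 2 lower, and the list's sums were 2.74 and 10.6. The part of these cells in the class II values was not tested.

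Around the class II genes, the CD93 pair differed little. Of 12 measured genes of the promoter complex, 0 were at least 2-fold apart, with a median of 0.10. Rfx5 had 6.55 in CD93-positive and 5.0 in CD93-negative cells, Rfxank 9.08 and 8.10, and Rfxap 12.7 and 12.4. Carm1, an arginine methyltransferase that acts with CIITA, had 6.86 and 6.38. Of 14 genes upstream of Ciita, 1 was at least 2-fold higher, Ifngr2, the signalling chain of the interferon gamma receptor, which was 3.38-fold higher (2.88 to 3.98; 15.0 in CD93-positive and 4.46 in CD93-negative cells), and 0 were lower. Ifngr1 had 528 and 651 in the same order, and Ifng 5.54 and 5.83. Of 19 measured processing genes, 1 was higher, Lgmn (7.28 and 2.88), and 0 lower, with a median of 0.19. Ctss had 56.6 in CD93-positive and 46.4 in CD93-negative cells, 1.22-fold higher (1.11 to 1.35).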

How the data were processed

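RNA-seq libraries of sorted ILC3s, 1 per group, were compared within 2 pairs. The FPKM values were computed and deposited by the authors. Per the submitters' processing notes, Bowtie2, featureCounts of Subread, edgeR and DESeq2 were used with mm10; the sources used here give neither their roles, versions and settings nor the annotation. The joint and single-library tables held equal values in all rows. The totals behind the scaling were found as the step that makes FPKM times GENCODE M21 exon length whole, within 0.02 reads, for 92.1% (KO), 91.9% (WT), 98.1% (CD93-positive) and 98.2% (CD93-negative) of values above 0. These totals were not whole numbers. Where M21 lengths gave no whole reads, which was so for 6 of the 7 genes in the KO and WT pair, 1 shared length from 150 to 20000 bases that gives whole reads in both libraries was searched. For 4 of these genes (H2-Aa, H2-Ab1, H2-Eb1, H2-DMa), and for H2-DMb2, H2-Ob and H2-Eb2, the smallest such length was taken, so their reads, intervals and bounds are known up to a multiple; whole multiples of it, with narrower intervals, are possible. The recovery and the interval were tested on simulated data, with reads counted as recovered up to a whole multiple. The genes simulated for the recovery had several reads in both libraries. Recovery with 0 or 1 read in a library was not tested. Python 3.11.15, numpy 2.4.6, pandas 2.3.3 and scipy 1.17.1 were used. Genes named are the 7, tabulated genes of the class II locus, promoter complex, class II receptor and MIF receptor lists, of other lists those at least 2-fold apart in a pair, most abundant or at 0, and the genes nearest to the members in both differences. A few genes of the lists are not reported here by name. Members and lists were chosen with earlier results of these data known. Ctss, Ifi30, Ifng, Ifngr1, Irf2, Irf4, Usf1 and Cd83 fall outside that rule and were named after their values were seen.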

Additional observations from a re-analysis of the deposited data

How the results depend on the processing

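Alternatives were a pseudocount of 0.1 or 5, scaling to a common summed FPKM, a median ratio of 1, no filter, a minimum FPKM of 5 and a 3-fold limit. In the KO and WT pair, 2 class II genes were at least 2-fold higher, but 0 with a pseudocount of 5, 1 with the minimum of 5 and 1 at 3-fold. The count of 1 lower gene was the same under these 7 alternatives. The median of 0.14 was 0.31 with the common sum, which moved the median of all genes to 0.17, and 0.012 with the minimum of 5; Ciita is left out by that filter. In the CD93 pair, the counts of 0 were the same under these alternatives, and the median of 0.24 lay between 0.10 and 0.41. There the common sum moved the median of all genes from 0.04 to -0.12, and the share of higher genes among those at least 2-fold apart to 36.9% from 56.2%. Over all genes, 2058 passed 2-fold upward and 1569 downward in KO, against 499 and 322 with a pseudocount of 5, 908 and 611 with the minimum of 5, and 920 and 636 at 3-fold. In the CD93 pair these were 252 and 196, against 391 and 392 with a pseudocount of 0.1, 109 and 60 with 5, 173 and 296 with the common sum, 210 and 127 with the minimum of 5, and 73 and 37 at 3-fold. Ratios of reads without the length moved past the intervals of 20 of 27 ratios within a library. Genes of unequal length give such moves by themselves where intervals are narrow. Other gene models were not tried, so how far the levels depend on them was not tested. No paired analysis was possible because each group has 1 library. Depth limits H2-DMb1, Ciita and the DO genes in the CD93 pair, which had 24 reads or fewer in each library.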

Other observations

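CD74 also acts at the cell surface as a receptor of the cytokine MIF, together with CD44. In CD93-positive cells Mif had an FPKM of 240.3, against 127 in CD93-negative cells, 1.89-fold higher (1.76 to 2.03), and Cd44 had 84.5 and 49.0 in the same order, 1.73-fold higher (1.66 to 1.80). Cxcr4, which encodes another partner of CD74, was 1.71-fold lower (19.6 and 33.5), and Ddt, the gene of a MIF homologue, had 6.63 and 5.49. Of these 4 genes, 0 reached 2-fold. In the KO and WT pair Mif had 51.4 in KO and 39.6 in WT, Cd44 86.9 and 70.6, Cxcr4 14.8 and 13.1, and Ddt was 3.65-fold lower (2.72 to 4.96; 2.83 and 10.3).

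T cells that read class II also need costimulation. Of 9 measured costimulatory genes in the KO and WT pair, 2 were at least 2-fold higher and 1 lower. Among all measured genes of this pair 29.3% were at least 2-fold apart, so the count does not stand apart from genes in general. With a pseudocount of 5, 1 was higher and 1 lower. Cd80, which encodes a ligand of CD28, had 116 reads in KO and none in WT, a difference of at least 37.4-fold, Tnfsf9, which encodes 4-1BB ligand, had an FPKM of 38.6 and 14.6, and Cd48 had 19.1 and 43.6. In the CD93 pair, 11 were measured. Tnfsf4, which encodes OX40 ligand, was 2.17-fold higher in CD93-positive cells (31.0 and 14.3), and Cd86, which encodes another ligand of CD28, was lower (0.700 and 2.43; 3.48-fold, 2.30 to 5.41). Cd80 had 1.01 in CD93-positive and 2.18 in CD93-negative cells, 2.14-fold lower (1.49 to 3.14). Cd83, whose product keeps MHC class II on the surface of antigen presenting cells, had 1128 in KO and 827 in WT, and 28.5 in CD93-positive and 18.3 in CD93-negative cells.

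The genes whose differences in both pairs lay nearest to the median of the measured class II genes (0.14 and 0.24), by distance over the 2 differences, were Tmem167, Snrpb, Pxk, Rars and Inafm2, at distances of 0.012 to 0.022. Of 3937 genes compared, 87 lay within 0.1 of it. The nearest to Cd74 were Tmx2, Fdx1, Arl3, Ndufa12 and Klf4, with 70 genes within 0.1. With 4 libraries, such likeness sets few genes apart.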
